A study of Solanum tuberosum with 6 samples.

Results

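Predicted small RNAs of 24 nt from potato leaves (cv. Shepody) were examined in control libraries and in libraries of plants treated with potassium phosphite (KPhi). They were the sequences that the annotation program placed in group 4a, matching no known miRNA but mapping to the potato genome within a sequence able to fold into a hairpin, and that were exactly 24 nt long. The table itself appears to leave out sequences with few reads, as described below. Within it, this choice used length and annotation and no read number. It held 142 sequences named for the 3p arm of their hairpin and 122 named for the 5p arm, 68.0% of the 388 of group 4a and 29.0% of the 910 of the whole table. All have names that begin with PC. Control plants received water (libraries C1, C3 and C5). KPhi plants received a 1% (v/v) solution of the product (5 mL for each plant), giving libraries T2, T4 and T6. The spray was applied 21 days after emergence and leaves of both groups were taken 72 h later, so all 6 libraries share cultivar, tissue and age. RNA was isolated from bulk leaf tissue, so fewer cells making a sequence and less of it per cell cannot be told apart. The study calls the 3 libraries of a group biological replicates.

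In plants, small RNAs of 24 nt are mostly short interfering RNAs. RNA polymerase IV makes their precursor, an RNA-dependent RNA polymerase copies it to a double strand, and the Dicer-like enzyme DCL3 cuts it. They are loaded into Argonaute proteins of the AGO4 group, which favour a 5′ adenine, and guide DNA methylation at transposons and repeats. Canonical plant miRNAs are instead cut by DCL1 from a hairpin, are shorter, and often begin with uracil, the base favoured by AGO1. A 24 nt sequence in a predicted hairpin can belong to either kind, and the read tables do not say which.

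Although they were the majority of group 4a by number, they held 4.56% of its reads, 8168 of 179249 over the 6 libraries. The 6 with the most reads are shown with their first base in capitals, since the first base differed from that of the shorter predicted sequences.
PC-3p-10278_209: Atggcgtggtccgcgagcggcggc
PC-3p-30526_66: Acccgagaccaagtcaacccgaca
PC-5p-9496_224: Agcccaagatcgttaactaagact
PC-3p-19155_111: Agcacctgacgacatttttgaaga
PC-5p-3138_630: Actttattaatgttgggcccgggc
PC-5p-19704_108: Acgccccgtagatccattggactt
Each begins with adenine.

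Adenine was the first base in 219 of the 24 nt sequences (83.0%), which carried 87.3% of their reads. Thymine, standing for uracil in the deposited DNA alphabet, came first in 30, guanine in 12 and cytosine in 3. Among the 88 predicted sequences of 20 to 23 nt, 17 (19.3%) began with adenine and 56 (63.6%) with thymine. The 194 sequences of 24 nt in the other annotation groups, which match known miRNAs or their precursors, lay between these, with adenine first in 112 (57.7%). Of the 36 predicted sequences of other lengths, 5 (13.9%) began with adenine, but these held 63.2% of the reads of the 36. By reads, a high share of adenine was thus not limited to 24 nt.

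**Figure D1:**
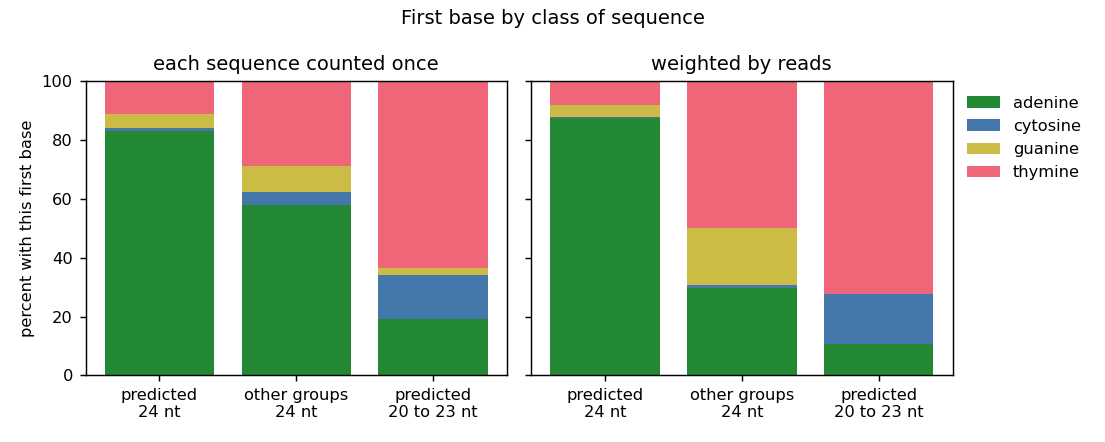
Percent of sequences (left) and of reads over the 6 libraries (right) with each first base, for the predicted sequences of 24 nt, the 194 sequences of 24 nt in other groups and the 88 predicted sequences of 20 to 23 nt. Adenine fills 83.0% of the first bar on the left and 19.3% of the third.

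The same held in each library. Among reads of the 24 nt sequences, adenine came first in 88.2%, 87.4% and 85.8% in the control libraries C1, C3 and C5, and in 90.3%, 82.8% and 86.5% in the KPhi ones, T2, T4 and T6. Among reads of the predicted sequences of 20 to 23 nt it came first in 9.23%, 7.56%, 11.2%, 14.5%, 12.8% and 9.94% of the same libraries. The ranges do not come near each other. The mean was 86.8% ± 2.53 (SD, n = 6) against 10.9% ± 2.51 (SD, n = 6), a difference of 76.0 percentage points. The first base is a fixed property of a sequence and the libraries hold largely the same sequences, so they are no independent replicates of this difference and no p is given. Counting once each sequence present in a library, the mean difference was 64.6 points.

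Beyond the first base, the sequences were mixed until near the 3′ end. At position 22 adenine was found in 42.4%, at position 23 cytosine in 42.4%, and at position 24 thymine in 39.4% and cytosine in 36.0%, with guanine last in 7.95%. At the positions from 2 to 21 the highest shares of any base were 36.7%, that of thymine at position 18, and 35.2%, that of adenine at position 6. The median GC content was 45.8%, ranging from 33.3% to 83.3%.

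**Figure D2:**
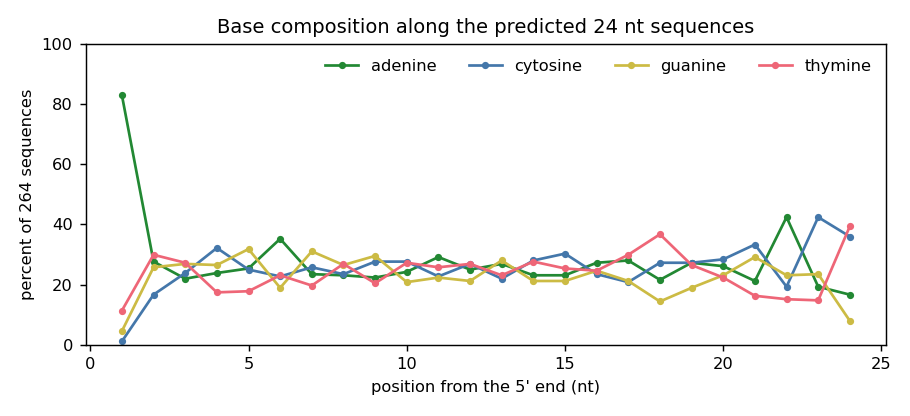
Percent of the predicted 24 nt sequences with each base (vertical) at each position from the 5′ end (horizontal, in nt). Adenine stands at 83.0% at position 1 and 42.4% at position 22, and cytosine at 42.4% at position 23.

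Single sequences were rare. The reads of a sequence over all 6 libraries ranged from 2 to 452, with a median of 17. Only 14 sequences had more than 100 reads, and 29 had fewer than 10. All of these 29 held fractions of reads, and no sequence with whole reads only had fewer than 10. The table thus appears to leave out rarer sequences, by a rule not given, which limits what can be said of read numbers and detection. Reads were spread over many sequences: the 10 most abundant carried 27.1% of the reads, and 37 were needed to reach 50%. Among the predicted sequences of 20 to 23 nt, 2 reached 50% and the first alone held 45.9%. In 56 of the sequences some reads were fractions, having been split between sequences by the annotation program.

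The 142 sequences named 3p had 4376 reads and the 122 named 5p had 3792. The 5p sequences held 48.3%, 50.2% and 49.1% of the reads of the control libraries C1, C3 and C5. They held 34.4% in T2, 48.4% in T4 and 48.1% in T6. Only T2 stood apart. Leaving out the sequence with the most reads, PC-3p-10278_209, brought the T2 share to 43.1% and the others to between 49.2% and 51.1%. The means were 49.2% ± 0.964 in control and 43.6% ± 8.01 in KPhi libraries (n = 3 per group, SD; p = 0.2 in a two-sided exact permutation test, in which 3 libraries against 3 allow no p below 0.1).

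At least 1 read was found for 254, 209 and 217 of the sequences in the control libraries C1, C3 and C5 and for 194, 179 and 252 in the KPhi libraries T2, T4 and T6. In all 6 libraries 114 reached 1 read. A further 4 to 20 sequences per library held only a fraction of a read. Mappable reads, those left after the authors' filters, numbered between 4133739 (C5) and 8025802 (T2). T2 was thus the deepest library by mappable reads and yet among the 2 with the fewest of these sequences. It was not deep by reads of the whole table, where its 365864 were the fewest after the 160923 of T4. Expected at the depth of C5, from values rounded to whole reads, the numbers were 247, 204, 221, 161, 178 and 236 in the same order of libraries. The mean number with at least 1 read was 227 ± 24.0 in control and 208 ± 38.6 in KPhi libraries (n = 3 per group, SD), and the groups overlapped (exact two-sided permutation test, p = 0.5). The difference of −18.3 was −3.67 without T4, −4.67 without C1, −11.2 without T2 and −40.2 without T6.

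**Figure D3:**
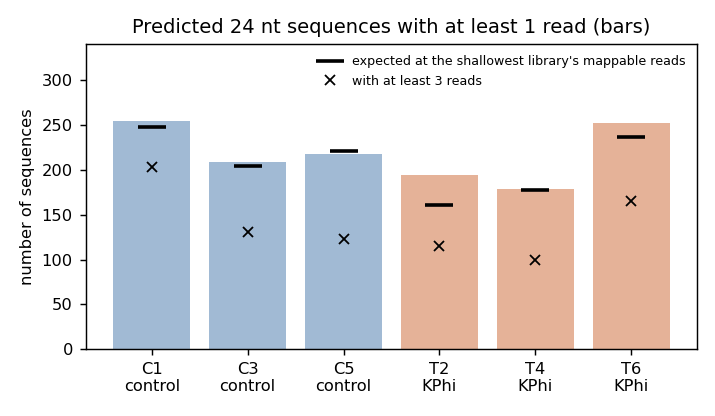
Number of the predicted 24 nt sequences (vertical) with at least 1 read in each library (bars), with at least 3 reads (crosses), and expected at the mappable reads of the shallowest library (dashes). T6 reaches 252, close to the 254 of C1, while T2 and T4 are lowest with 194 and 179.

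The summed level of the 24 nt sequences had no single direction between the groups, since it depended on what it was divided by. As a share of mappable reads it was 0.0385%, 0.0263% and 0.0241% in the control libraries C1, C3 and C5. In KPhi libraries it was 0.0164% (T2), 0.0150% (T4) and 0.031% (T6). T2 and T4 lay below every control library and T6 above C3 and C5. The means were 0.0296% ± 0.00773 and 0.0209% ± 0.00901 for control and KPhi libraries (n = 3 per group, SD; p = 0.3 in a two-sided exact permutation test). As a share of all reads of the table, the same reads were 0.341%, 0.267% and 0.264% in the control libraries and 0.359%, 0.410% and 0.334% in the KPhi libraries, in the order C1, C3, C5, T2, T4 and T6. The mean was then lower in control (0.291% ± 0.0439) than in KPhi libraries (0.368% ± 0.0385), again with overlap (n = 3 per group, SD; p = 0.2 in a two-sided exact permutation test). The table held few reads in T4, 160923 against 365864 to 612266 elsewhere. With the miR166 family left out of the divisor, an alternative added after the data were seen, the means were 1.70% ± 0.337 in control and 1.40% ± 0.384 in KPhi libraries (n = 3 per group, SD; p = 0.4 in a two-sided exact permutation test).

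**Figure D4:**
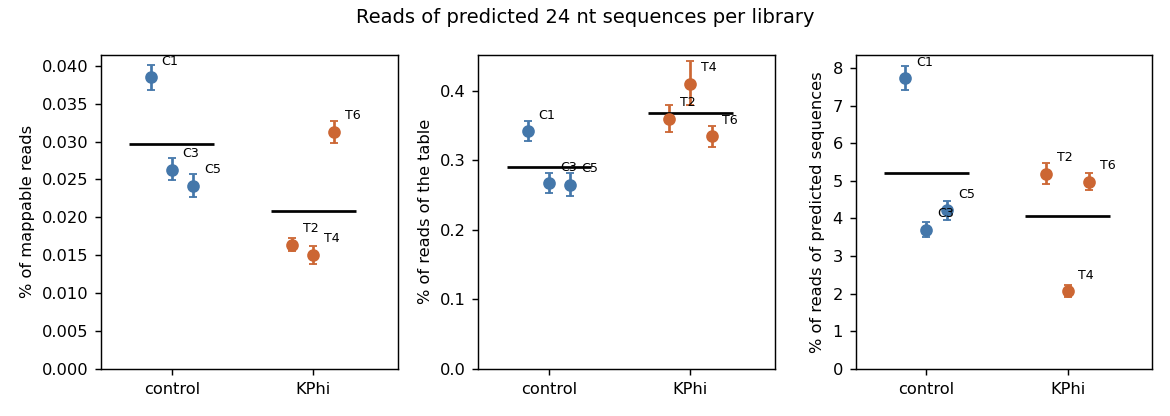
Reads of the predicted 24 nt sequences in each library as a percent of mappable reads (left), of all reads of the table (middle) and of the reads of group 4a (right). Points are libraries with exact 95% binomial intervals, which cover counting error only, and lines are group means. The KPhi mean is below the control mean on the left (0.0209% against 0.0296%) and above it in the middle (0.368% against 0.291%).

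Within group 4a, the 24 nt sequences took 7.72%, 3.70% and 4.21% of the reads of the control libraries and 5.19%, 2.06% and 4.97% of those of the KPhi libraries, where C1 was the highest and T4 the lowest. The group means, 5.21% ± 2.19 and 4.07% ± 1.75 (n = 3 per group, SD), did not separate (exact two-sided permutation test, p = 0.6). Without C1 the KPhi mean was higher by 0.119 points. The exact 95% (Clopper-Pearson) interval of the share in a single library was narrow, from 7.41% to 8.05% in C1 and from 1.90% to 2.22% in T4.

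For single sequences, the quasi-likelihood test of edgeR was run on reads rounded to whole numbers. The model held the 165 sequences of the table that reached 10 reads in 3 or more libraries, and Benjamini-Hochberg adjustment ran over all of them. Of the predicted 24 nt sequences 29 entered the test, with 44.4% of the reads, and the other 235 were too rare. None of the 29 was called at an adjusted p under 0.05 by edgeR, DESeq2 or limma-trend. Of all 165 sequences, 0.0% were called by edgeR. At an unadjusted p under 0.05 edgeR gave 1 higher in KPhi, where 5.45% of all tested sequences were higher at that level, and 0 lower, where 4.24% were (9.7% in either direction). The fold change was below 0 for 21 of the 29, against 56.4% of all sequences tested, and its median was −0.18 on the log2 scale, against −0.13 over all 165. Scaled by library size only the median was 0.18, and by mappable reads −0.67, so no direction is given for these sequences as a set. Of the 29, 27 began with adenine, with a median log2 fold change of −0.21 in edgeR. The 12 named 5p had a median of −0.51 and the 17 named 3p of −0.11.

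The only one of the 29 at an unadjusted p under 0.05 was PC-3p-10278_209, the most abundant, with 79.2% G and C. It had 36, 22 and 29 reads in control (C1, C3, C5) and 267, 21 and 77 in KPhi libraries (T2, T4, T6). T4 had fewer raw reads than any control library, and T2 alone held 59.1% of the reads of this sequence. Scaled by TMM factors, its level in CPM was 70.3 ± 13.4 in control and 338 ± 399 in KPhi libraries (n = 3 per group, SD). CPM are reads per 1000000, with the table total of each library first multiplied by its TMM factor. This factor was 1.85 in T4 and between 0.746 (C3) and 0.947 (C1) elsewhere. On that scale T4, at 70.6 CPM, lay above C1 (62.1) and C3 (63.0) and below C5 (85.8). The log2 fold change was 2.26 (SE 0.81), with an edgeR p of 0.018 and an adjusted p of 0.470. Without T2 it was 0.66, at an adjusted p of 0.846. Without the filter on low reads, when every sequence with any read left after rounding was tested, the adjusted p became 0.0337. It was then the only 24 nt sequence called, where 0.476% of the 841 sequences in that test were. At an unadjusted p under 0.05 the same test gave 3 of the 24 nt sequences higher and 4 lower, where 3.8% and 1.66% of all 841 were.

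PC-3p-10278_209 lies entirely inside a predicted sequence of 25 nt, PC-3p-11753_182, shown with the shared bases in capitals.
PC-3p-10278_209: ATGGCGTGGTCCGCGAGCGGCGGC
PC-3p-11753_182: gATGGCGTGGTCCGCGAGCGGCGGC
They differ by 1 base at the 5′ end. The 25 nt form had 10, 19 and 6 reads in control (C1, C3, C5) and 99, 32 and 16 in KPhi libraries (T2, T4, T6), so T2 was the highest library for both. Its second library was T4, at 108 CPM, while that of the 24 nt form was T6.

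The sequence PC-3p-14680_147, which the study lists as changed by KPhi, was the only one of the 29 whose groups did not overlap with KPhi lower, as in 9.09% of all tested sequences. None lay without overlap above control, as in 7.88% of all. It had 62, 26 and 24 reads in control (C1, C3, C5) and 12, 19 and 28 in KPhi libraries (T2, T4, T6). In raw reads T6 exceeded C3 and C5, so that the separation depends on the scaling. The levels were 107, 74.5 and 71.0 CPM in control and 35.8, 63.9 and 53.9 CPM in KPhi libraries, a log2 fold change of −0.72 (SE 0.51) at an edgeR p of 0.182 and an adjusted p of 0.590. Per 1000000 reads of the table, T4 had 118 reads, above C1 (101), C3 (55.6) and C5 (63.5). The log2 fold change was −0.19 with library size only, −1.12 with mappable reads and −0.36 without C1.

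PC-5p-75813_19, PC-5p-16777_128 and PC-5p-9496_224 had the smallest p-values after PC-3p-10278_209, all with lower KPhi means. PC-5p-9496_224 had 71, 43 and 32 reads in control and 8, 15 and 55 in KPhi libraries. T2 and T4 were low and T6 reached the level of the control libraries, with 106 CPM against 94.7 to 123. Its log2 fold change was −0.89 (SE 0.60, edgeR adjusted p = 0.590). It was −1.55 without T6 (edgeR adjusted p = 0.307), −0.52 without T2 and −0.46 with library size only. PC-5p-16777_128 had 37, 42 and 24 reads in control and 13, 8 and 36 in KPhi libraries, again with T6 alone among the control levels, and a log2 fold change of −0.89 (SE 0.56, edgeR adjusted p = 0.590) that was −0.35 without C3 and −0.54 without T4. PC-5p-75813_19 had 24, 8 and 13 against 3, 8 and 10 reads, and a log2 fold change of −0.91 (SE 0.53, edgeR adjusted p = 0.534). With PC-3p-18344_117, PC-3p-34408_57, PC-5p-53314_32 and PC-5p-15510_138, whose log2 fold changes were −0.66, −0.63, −0.57 and −0.63, these sequences had adjusted p-values from 0.534 to 0.650 in edgeR.

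**Figure D5:**
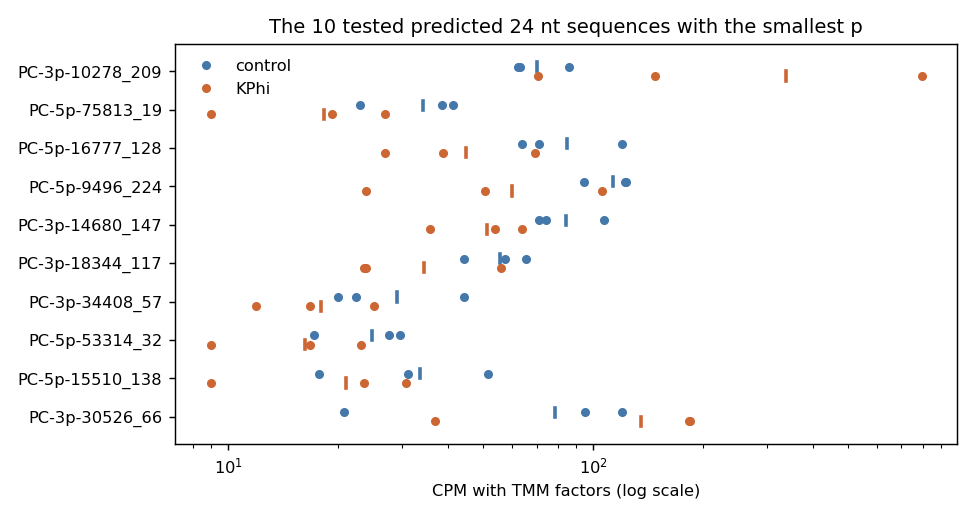
Level of the 10 tested predicted 24 nt sequences with the smallest edgeR p in each library, as CPM with TMM factors on a log axis. Points are libraries, bars are group means. PC-3p-10278_209 reaches 796 CPM in T2 and 70.6 in T4, and the KPhi points of PC-3p-14680_147 lie below its control points.

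Other abundant sequences varied as much within a group as between groups. PC-3p-30526_66 had 55, 42 and 7 reads in control and 62, 11 and 95 in KPhi libraries. C5 and T4 were low. Its log2 fold change was 0.78 (SE 0.74, edgeR adjusted p = 0.665). PC-3p-19155_111 had 42, 28 and 22 against 74, 7 and 48 reads, with a log2 fold change of 0.63 that became −0.29 without T2. PC-5p-3138_630, PC-5p-19704_108, PC-3p-17085_125 and PC-5p-15413_139 had log2 fold changes of −0.46, −0.42, −0.21 and 0.04 in edgeR, at adjusted p-values of 0.743 to 0.945.

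Sequences that overlapped another by at least 18 nt with at most 3 mismatches formed 26 families with 76 members, and 188 stood alone. The largest family had 10 members, all named 3p and all beginning with adenine, and 538 reads, 6.59% of the reads of the 24 nt sequences. Its 5 most abundant members are shown with the run that all 10 share in capitals.
PC-3p-30526_66: acccgagaccaagtCAACCCGAca
PC-3p-27770_74: atccgagaccaaatCAACCCGAca
PC-3p-59765_27: acccgagactatacCAACCCGAca
PC-3p-70065_22: agcccgagaccaaatCAACCCGAc
PC-3p-54314_31: actcgagaccaaacCAACCCGAat
PC-3p-70065_22 is shifted by 1 base against the lead. Summed, the family had 241, 245 and 71.0 CPM in control (C1, C3, C5) and 328, 86.5 and 296 CPM in KPhi libraries (T2, T4, T6), with C5 and T4 low and the groups overlapping.

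The next family had 5 members led by PC-3p-14680_147 and 324 reads. The shared run is in capitals.
PC-3p-14680_147: aagagaattctggtttGTGGTGGC
PC-3p-32111_62: agaattctgatttGTGGTGGCgcc
PC-5p-86224_16: aagagaattctagtttGTGGTGGC
PC-5p-54041_32: aagggaattctggcttGTGGTGGC
PC-5p-82486_17: aagggaattctggttcGTGGTGGC
Near-identical sequences here carry different arm names, 3p in 2 and 5p in 3, so that the arm in a name is that of the hairpin predicted for each. The summed family had 197, 123 and 151 CPM in control and 107, 108 and 92.4 CPM in KPhi libraries, means of 157 ± 37.1 and 102 ± 8.69 (n = 3 per group, SD) without overlap. Divided by all reads of the table instead, the groups overlapped. PC-3p-14680_147 itself held most of these reads, and PC-3p-32111_62, the only other member tested, had a log2 fold change of −0.13 (edgeR adjusted p = 0.889).

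The other large families were led by PC-5p-39770_47 (5 members, 117 reads), PC-3p-30525_66 (4 members, 194 reads) and PC-5p-49979_35 (4 members). In TMM-scaled CPM all had overlapping groups. Divided by the reads of the table, the family of PC-3p-30525_66 was higher in KPhi libraries without overlap, with means of 88.8 against 60.8 reads per 1000000. Divided by mappable reads its groups overlapped, with a KPhi mean of 5.82 against 6.08 in control, so the separation depends on the scaling. How often the smaller families separate was not counted, for this family or that of PC-3p-14680_147 to be set against. PC-3p-30525_66 had 15, 19 and 11 reads in control and 15, 6 and 45 in KPhi libraries. T6 was its highest library and T4 its lowest.

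A small RNA cut from a double strand can leave a partner complementary to it. Of the 24 nt sequences, 35 were complementary to another sequence of the table over at least 18 nt with at most 3 mismatches, as were 8 of the 88 predicted sequences of 20 to 23 nt. For 13 of the 35 a partner was another predicted 24 nt sequence. All 10 members of the largest family paired with stu-miR8030-5p_1ss2TC, a variant of a known potato miRNA with 52 reads. The pairs are shown with paired bases in capitals, each strand 5′ to 3′.
PC-3p-30526_66: ACCCGAGACCAAgtCAACCCGAca
stu-miR8030-5p_1ss2TC: TCGGGTTGgtTTGGTCTCGGGTt
They pair at 20 of 22 positions, with 3′ overhangs of 2 and 1 nt. The miRNA variant had 14, 7 and 10 reads in control and 2, 7 and 12 in KPhi libraries, so T2, where PC-3p-30526_66 had 62 reads, was its lowest library.

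A further 2 pairs were chosen after their values were seen, 1 as the only pair without a mismatch over at least 20 nt and the other for its ends.
PC-5p-76966_19: GGCGACCTGAGAACACATGTTgag
nta-miR398_L+4R-1: AACATGTGTTCTCAGGTCGCCcct
PC-3p-83531_17: TTTGGtTGGTGGGATAAGGATAat
PC-5p-59447_28: TATCCTTATCCCACCAtCCAAAca
PC-5p-76966_19 pairs at 21 of 21 positions with a variant of miR398, leaving 3 nt at each 3′ end. The miRNA miR398 is a conserved one of copper and superoxide dismutase regulation. The annotation placed this variant in a group that did not map to the potato genome. PC-5p-76966_19 had 22, 1 and 8 reads in control and 8, 4 and 24 in KPhi libraries, and the variant 5, 3 and 4 against 6, 7 and 4. It was also complementary to stu-miR398b-3p, which the study lists as higher after KPhi, over 18 nt with 2 mismatches. This potato miRNA had 12, 8 and 5 reads in control and 17, 9 and 21 in KPhi libraries. PC-3p-83531_17 and PC-5p-59447_28 pair at 21 of 22 positions and leave 2 nt at each 3′ end, the overhang that Dicer-like enzymes leave. Few of the 85 pairs found had such ends: they were counted 4 times, with this pair counted from each side. Whether any pair was cut by such an enzyme was not tested. With 17 and 14 reads in all, PC-3p-83531_17 and PC-5p-59447_28 had too few to compare the groups. PC-3p-30525_66 and PC-5p-15510_138, the latter with 18.5, 18.5 and 6.5 reads in control and 3, 7 and 15.5 in KPhi libraries, are complementary at 17 of 18 positions with 6 nt left at each end.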

How the data were processed

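Total RNA of leaves was sequenced as small RNA in 3 control and 3 KPhi libraries (TruSeq libraries, HiSeq). The authors filtered reads and annotated them with ACGT101-miR against miRBase and the potato genome, with hairpins from RNAfold. The version of ACGT101-miR and the genome build used for mapping are not given in the sources used here. The deposited read summary gives whole read counts per library at each step. The deposited table gives expected counts per sequence, some fractional because reads were split between sequences by a rule not given. The authors' normalized signal divides these by a library size parameter, and was used for limma-trend only, as log2 of the value plus 1. A deposited table of the authors' own test (p-values, means and SDs) was not used.

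The sequences, lists and tests were chosen with earlier results of these data known. Reads were rounded and tested with edgeR 4.0.16 (TMM, quasi-likelihood, Benjamini-Hochberg over 165 sequences), in place of the study's own test on normalized values. The biological coefficient of variation was 49.8%. Shares were compared by exact permutation tests in scipy 1.17.1. A planned test of the first base over libraries is not reported, since the libraries hold the same sequences. Alternatives used DESeq2 1.42.0, limma 3.58.1, other scalings and filters, and each library left out in turn. The edgeR step was tested on simulated data. Named are the 10 sequences with the most reads, the 10 tested with the smallest p, that listed by the study, the leads of the 5 largest families and the 5 most abundant with a complementary partner, others after their values were seen. PCR reads are not independent molecules, so binomial intervals cover counting error only. No genome sequence was used here, so no position is given. R 4.3.3, Python 3.11.15, pandas 2.3.3, numpy 2.4.6 and matplotlib 3.10.9 were used.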

Additional observations from a re-analysis of the deposited data

How the results depend on the processing

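No paired analysis was run, because the labels do not say whether control and KPhi libraries formed pairs. Their replicate numbers (1, 3, 5 and 2, 4, 6) alternate between the 2 groups and neither give nor exclude pairs. The median log2 fold change of the tested 24 nt sequences, −0.18, was 0.18 with library size only. It ranged from −0.29 to 0.10 over fits leaving out 1 library (0.03 without C1, 0.01 without C3 and 0.10 without T4). The filter was applied anew in each of these fits, so the sequences tested changed: 20 without C1, 24 without C3 and 29 without T4. Without the filter on low reads edgeR called 1 sequence at an adjusted p under 0.05 (PC-3p-10278_209, adjusted p = 0.0337, log2 fold change 2.28), where 0.476% of all 841 were. At an unadjusted p under 0.05 it gave 3 sequences higher and 4 lower, where 3.8% and 1.66% of all 841 were. limma-trend gave 0 higher at that level. Over fits leaving out 1 library the number higher was 0 to 1, at 0 without C1 or T2, and the number lower 0 to 1, at 1 without T6. The KPhi minus control difference in the share of group 4a reads was −1.14 points and ranged from −1.89 to 0.119 leaving out 1 library. The share of table reads, 0.0769 points higher in KPhi, became −0.299 points without the miR166 family. The difference in adenine as first base was 75.2 to 77.2 points without 1 library. Families held 7 sequences when an overlap of 16 nt without mismatch was required, and 1 sequence had a partner over 20 nt without mismatch.

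Leaving out 1 library, the KPhi minus control difference ranged from −0.0139 to −0.00434 points of mappable reads, from 0.0559 to 0.102 points of table reads, from −7.97 to −0.979 points for the 5p share and from −40.2 to −3.67 for the number of sequences with at least 1 read.

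Among the named sequences 12 of 214 fold changes reversed. Leaving out 1 library, PC-3p-19155_111 ranged from −0.29 (without T2) to 1.29, PC-5p-3138_630 from −0.88 to 0.31 (0.09 without T4, 0.31 without C3), PC-3p-17085_125 from −0.37 to 0.53, PC-3p-27770_74 from −0.85 to 0.25, PC-5p-15413_139 from −0.38 to 0.28 and PC-3p-30525_66 from −0.10 to 1.04. With library size only PC-3p-17085_125 went to 0.21 and PC-3p-27770_74 to 0.0088. PC-5p-15413_139 went to −0.26 with mappable reads, −0.016 with the authors' parameters and −0.12 with limma-trend. The cause of these changes was not tested. Depth limits single sequences: 235 of the 24 nt sequences had too few reads to test.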

Other observations

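Of the 235 rarer sequences, 6 had an unadjusted p under 0.05 when edgeR was run without a filter, none at an adjusted p under 0.05. Of all 841 sequences in that test, 32 were higher and 14 lower at that level. PC-3p-115578_10 had 0 reads in every control library and 0, 4 and 6 in T2, T4 and T6, at an edgeR adjusted p of 0.250. Its total of 10 reads was the lowest seen for a sequence with whole reads only. It was the only 24 nt sequence with no read in any control library, and none lacked reads in all KPhi libraries. PC-3p-44855_41 had 6, 22 and 4 reads in control and 4, 3 and 2 in KPhi libraries, where C3 alone held 53.7% of its reads (edgeR adjusted p = 0.743). PC-3p-74176_20 had 18, 2 and 5 against 0, 3 and 2 reads, with 60.0% of them in C1.

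The 24 nt sequences of the other annotation groups are set beside the predicted ones because they share the length. They took 0.0244%, 0.0175% and 0.0197% of mappable reads in the control libraries and 0.00892%, 0.0110% and 0.0204% in T2, T4 and T6, low in T2 and T4 as the predicted 24 nt sequences were. A low T2 was not particular to this length. T2 was also the lowest library for the predicted sequences of 20 to 23 nt (0.195% of mappable reads) and of other lengths (0.104%). T4 was not low for either, at 0.459% and 0.256%. The log2 ratio of predicted to other 24 nt reads was 0.51 ± 0.19 in control and 0.65 ± 0.22 in KPhi libraries (n = 3 per group, SD; p = 0.5 in a two-sided exact permutation test).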
